A study of Mus musculus with 6 samples.

Results

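The 48 genes described here encode the machinery that copies nuclear DNA: the factors that license origins, the replicative helicase and the proteins that switch it on, the polymerases, the sliding clamp and its loaders, the single-strand binding proteins, the enzymes that finish the lagging strand, the proteins that guard the fork and those that rebuild chromatin behind it. They were taken by gene symbol from a list of names, and they are 48 of the 22939 genes in the deposited tables. The rule holds no measured value, but the list was chosen with earlier results of these data known. Some partners of these genes lie outside it. All 48 passed the filter on low counts and were among the 13463 genes tested.

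RNA-seq was performed on regulatory T (Treg) cells differentiated in vitro without sorafenib (Sora), the ctrl-Treg group (n = 3), or with it, the Sora-Treg group (n = 3). Sora is a multikinase inhibitor given to patients with liver cancer, and the comparison addresses how it changed the transcriptome of Treg cells. Following the study's methods, naive CD4+ T cells from spleen and lymph nodes of Foxp3-GFP reporter mice were stimulated through CD3 and CD28, steered to the Treg fate with TGF-β1 and antibodies to IFN-γ and IL4, and sorted as GFP+ cells. Both groups therefore share the reporter genotype, the cytokine, the antibodies and the sort, and both are Treg cells made in culture, not Treg cells of a tissue. The Sora dose and time in culture behind these libraries, and the age of the mice, are not given in the sources used here. The study names a dose and time for its PCR and ELISA on Treg cells from such mice, but not for the sequenced cells. Whether replicates came from separate cultures or animals is not given either. The p-values below thus measure the spread between these libraries, which may be technical.

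Replication starts in G1, when the origin recognition complex (ORC), Cdc6 and Cdt1 load the ring of Mcm2 to Mcm7 onto DNA as an inactive double hexamer. In S phase, kinases and loading factors add Cdc45 and the GINS complex to each ring, and the resulting CMG helicase unwinds DNA ahead of polymerase epsilon on the leading strand and polymerases alpha and delta on the lagging strand. T cells leaving the naive state raise these genes strongly as they enter division, and many of the genes are known targets of the E2F transcription factors.

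Total counts per library ranged from 30727686 to 37717324, and the 48 genes took 0.341% to 0.346% of the counts in the ctrl-Treg libraries and 0.228% to 0.231% in the Sora-Treg libraries. Levels below are CPM, a gene's counts scaled to the library's total after TMM adjustment, unless FPKM is named. FPKM divides by gene length and by the library's total without TMM adjustment. It therefore puts Sora-Treg libraries lower against ctrl-Treg libraries than CPM does. Markers of T and Treg cells were present in every library, with Foxp3 at 252 to 269 CPM in ctrl-Treg and 268 to 278 CPM in Sora-Treg libraries. Of the 8 such markers 7 were called higher in Sora-Treg cells by edgeR. The 8 summed to 4081 to 4128 CPM in ctrl-Treg and 7132 to 7246 CPM in Sora-Treg libraries. Much of that sum was Il2ra, with means of 1934 and 3795 CPM. Foxp3 and Cd4 passed narrowly (edgeR adjusted p = 0.0405 and 0.0416), and the Foxp3 groups overlapped. In FPKM, which lacks the TMM adjustment, both had the lower mean in Sora-Treg libraries, 66.6 against 68.5 for Foxp3 and 196 against 204 for Cd4. Summed over 7 myeloid genes, the level was 93.3, 93.1 and 24.9 CPM in ctrl-Treg and 22.2, 43.0 and 20.7 CPM in Sora-Treg libraries, so ctrl-Treg replicates 1 and 2 stood apart. The highest myeloid gene was Lyz2, at 47.5, 47.9 and 12.6 CPM and then 5.64, 21.2 and 4.66 CPM, and no myeloid gene was at 0 in any library. With both of those ctrl-Treg libraries left out, 1 ctrl-Treg library remained, the spread came from the 3 Sora-Treg libraries alone and that 1 library was assumed to vary like them. In that fit 43 of the 48 replication genes were called lower, against 20.8% of all genes tested, and all 48 had a negative log2 fold change. The 5 B cell genes summed to 9.71 to 10.7 CPM in ctrl-Treg and 6.09 to 7.68 CPM in Sora-Treg libraries, mostly Cd79b, with Ms4a1 and Pax5 each at 0 in some Sora-Treg library. CD8 T cell genes summed to 13.2 to 15.1 CPM and 12.6 to 13.8 CPM, natural killer cell genes to 2.13 to 2.34 CPM and 4.12 to 4.99 CPM, nearly all from Eomes while Klrb1c and Klra7 were at or near 0, and erythroid genes to at most 0.188 CPM. The part of these other cell types in the results on replication genes was not tested beyond the libraries left out.

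Transcripts of the 48 replication genes were lower in Sora-Treg cells almost throughout. By the edgeR quasi-likelihood test, adjusted over all genes tested, 47 of the 48 genes were called lower at an adjusted p under 0.05. None was called higher, and 1, the clamp loader subunit gene Rfc3, was not called. This holds for the 48 genes listed: of 36 other replication factors tested, 25 were called lower, 5 higher and 6 not called. The background is high in these data, since 29.9% of all tested genes were called lower and 29.7% higher, and 32% had every Sora-Treg library below every ctrl-Treg library. Among the replication genes, 47 had groups that did not overlap in that direction, the exception being Rnaseh2b. None was higher at an unadjusted p under 0.05 either, and DESeq2 and limma called none higher. In a bulk library, fewer cells in S phase and less of these transcripts in each cell cannot be told apart.

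The falls were mostly moderate in size. The log2 fold change of Sora-Treg over ctrl-Treg had a median of -0.57 over the 48 genes, against -0.0035 over all genes tested, and ran from -1.12 for Mcm10 to -0.04 for Rfc3. Only 3 genes fell at least 2-fold, namely Mcm10, Cdc45 and Dscc1, while 4.97% of all tested genes did. Dscc1, at -1.01, lay just past the 2-fold limit, and the nearest gene on its other side was Clspn, at -0.87. The summed level of the 48 genes was 3299, 3288 and 3332 CPM for ctrl-Treg and 2396, 2373 and 2388 CPM for Sora-Treg cells. The groups lay far apart on this sum, with a Sora-Treg mean 27.9% below the ctrl-Treg mean. Replicates were close, with a median coefficient of variation over the 48 genes of 2.90% in ctrl-Treg and 3.70% in Sora-Treg libraries. Across the 48 genes, which are not independent replicates, the log2 fold change was only loosely related to the ctrl-Treg FPKM on a log2 scale (Pearson's r 0.305, Spearman's rho 0.242).

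**Figure D1:**
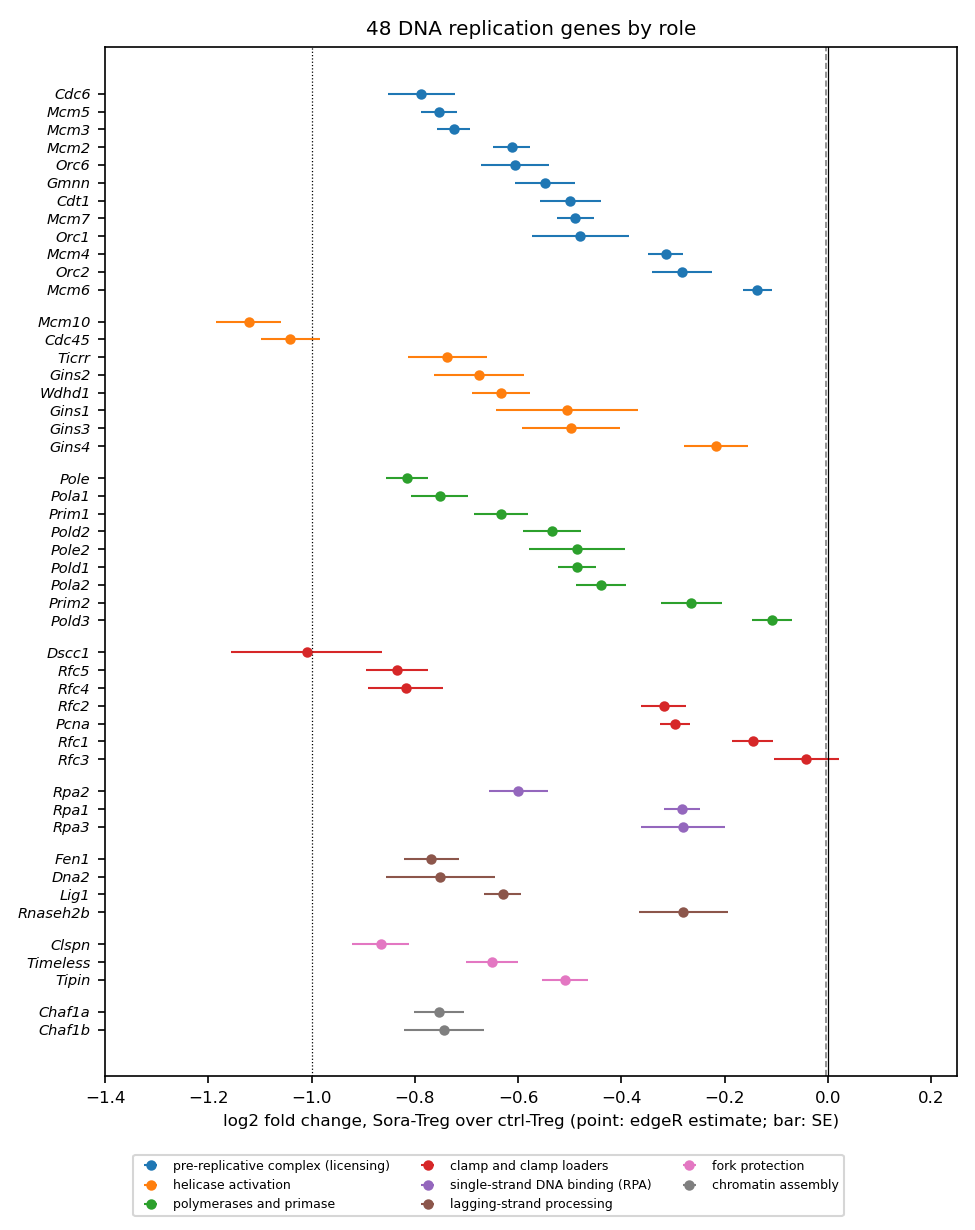
Log2 fold change of Sora-Treg over ctrl-Treg (x axis) for each of the 48 genes (y axis), grouped and coloured by role, as edgeR estimates with bars of 1 SE. The dashed line is the median of all tested genes (-0.0035), the dotted line a 2-fold fall, and the solid line no change: all 48 points lie left of no change, with Mcm10, Cdc45 and Dscc1 past the 2-fold line and Rfc3 within 1 SE of no change.

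Promoter sequence is shown for 5 genes that mark out this range: Mcm10 and Cdc45, the genes with the largest falls, Mcm3 and Mcm6, subunits of a single ring that fell by unequal amounts, and Rfc3, the gene not called. Each run below is the 150 bases that end just before the gene's start in RefSeq on GRCm38.p6, 5′ to 3′ on the gene's strand, outside the annotated gene. Capitals mark matches, on either strand, to CCAAT and to an E2F-type motif (TTTCCCGC, TTTCGCGC, TTTGCCGC or TTTGGCGC). The Mcm10 stretch is chr2:5012792-5012941 (minus strand), that of Cdc45 chr16:18811973-18812122 (minus), that of Mcm3 chr1:20820313-20820462 (minus), that of Mcm6 chr1:128359706-128359855 (minus) and that of Rfc3 chr5:151651209-151651358 (minus).
Mcm10: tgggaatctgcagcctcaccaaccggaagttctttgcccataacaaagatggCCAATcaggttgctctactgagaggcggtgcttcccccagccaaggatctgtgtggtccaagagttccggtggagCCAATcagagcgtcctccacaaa
Cdc45: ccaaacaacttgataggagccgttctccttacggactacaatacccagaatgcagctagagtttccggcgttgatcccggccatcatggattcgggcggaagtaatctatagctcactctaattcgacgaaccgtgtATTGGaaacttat
Mcm3: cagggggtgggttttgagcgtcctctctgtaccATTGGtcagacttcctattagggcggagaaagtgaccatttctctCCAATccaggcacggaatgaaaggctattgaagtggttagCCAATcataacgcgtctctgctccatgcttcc
Mcm6: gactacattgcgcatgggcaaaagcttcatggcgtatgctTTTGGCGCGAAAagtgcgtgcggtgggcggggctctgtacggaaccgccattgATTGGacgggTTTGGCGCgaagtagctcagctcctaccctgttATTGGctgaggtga
Rfc3: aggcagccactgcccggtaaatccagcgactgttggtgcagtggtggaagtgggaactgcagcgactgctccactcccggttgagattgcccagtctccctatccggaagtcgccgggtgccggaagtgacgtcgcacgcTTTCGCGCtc

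In these stretches Mcm6 held 3 E2F-type matches, of which 2 overlap, and 2 CCAAT matches. Rfc3 held 1 E2F-type match close to the start and no CCAAT. Mcm10, Cdc45 and Mcm3 held CCAAT and no E2F-type match. GC box matches are not marked. Mcm3 had its E2F-type matches beyond the gene's start, outside the stretch shown. Rfc3 likewise had another E2F-type match at the gene's start and a CCAAT match upstream of the stretch shown. RefSeq promoter windows, each of 300 bases from 250 before the start to 50 after it, were found for 37 of the 48 genes. An E2F-type motif was present for 15 of these 37 (40.5%), against 4.67% of the 10701 tested genes with a window and 2.26% of all 32851 windows. CCAAT was present for 23 of 37 (62.2%), against 42.9% of tested genes and 37.4% of windows. The cell cycle homology motif (CHR, TTTGAA or TTCGAA) was present for 7 (18.9%), against 16.7% and 19.2%, and the GC box (GGGCGG) for 26 (70.3%), against 66.3% and 35.7%. Each motif was searched on both strands and counted by itself, so matches of different motifs may overlap. The median log2 fold change was -0.50 over the 15 genes with an E2F-type match and -0.63 over the rest of the 37, a smaller fall with the motif than without it by these medians. A match describes letters in the window and is not a measured binding site.

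The pre-replicative complex genes, whose products license origins in G1, were all lower in Sora-Treg cells, 12 of 12, with a median log2 fold change of -0.52. Their summed level was 1275, 1285 and 1291 CPM in ctrl-Treg and 941, 942 and 933 CPM in Sora-Treg libraries, 26.9% lower by the means. Cdc6, the ATPase that joins ORC to load the helicase, fell most, from 35.2, 32.5 and 34.5 CPM to 19.5, 18.7 and 20.9 CPM. This fall was -0.79 ± 0.06 as a log2 fold change with its SE (edgeR adjusted p = 3.82e-10). The ORC subunit genes fell by less, with Orc6 at -0.61 ± 0.07, Orc1, the subunit that in many cells varies with the cycle, at -0.48 ± 0.09 and Orc2 at -0.28 ± 0.06.

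Cdt1, which brings the helicase ring to ORC, and Gmnn, which encodes geminin, the inhibitor that binds Cdt1 after licensing, fell side by side. Cdt1 was at 41.0, 40.9 and 46.1 CPM in ctrl-Treg and 31.4, 30.6 and 28.5 CPM in Sora-Treg libraries, a log2 fold change of -0.50 ± 0.06 (edgeR adjusted p = 1.51e-07). Gmnn was at 36.3, 34.6 and 35.2 CPM against 24.9, 24.2 and 23.5 CPM, a log2 fold change of -0.55 ± 0.06 (edgeR adjusted p = 2.56e-08). Neither gene's groups overlapped. The ratio of Cdt1 to Gmnn within a library, per length, was 1.37, 1.43 and 1.58 in ctrl-Treg and 1.52, 1.52 and 1.47 in Sora-Treg libraries, so on the ratio the groups did overlap.

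The 6 subunit genes of the Mcm2 to Mcm7 ring all fell, but by unequal amounts. Mcm5 was at 155, 158 and 151 CPM in ctrl-Treg and 92.8, 91.5 and 91.2 CPM in Sora-Treg libraries, and Mcm3 at 187, 188 and 189 CPM against 113, 112 and 116 CPM. These were the steepest falls in the ring, with log2 fold changes of -0.75 ± 0.03 and -0.72 ± 0.03 (edgeR adjusted p = 9.11e-15 and 5.51e-15). Mcm2 followed, from 138, 141 and 138 CPM to 87.6, 92.2 and 92.8 CPM, at -0.61 ± 0.04 (edgeR adjusted p = 9.93e-13). Mcm7 went from 147, 147 and 149 CPM to 109, 101 and 107 CPM, at -0.49 ± 0.04 (edgeR adjusted p = 4.71e-11). Each of these 4 genes had its Sora-Treg libraries well below its ctrl-Treg libraries.

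Mcm4 and Mcm6 fell least of the ring. Mcm4 was at 146, 152 and 155 CPM in ctrl-Treg and 119, 124 and 121 CPM in Sora-Treg libraries, a log2 fold change of -0.31 ± 0.03 (edgeR adjusted p = 4.33e-08). Mcm6 was at 297, 296 and 306 CPM against 274, 276 and 268 CPM, a log2 fold change of only -0.14 ± 0.03 (edgeR adjusted p = 0.000216). The Mcm6 groups were separate, but the Sora-Treg mean lay only 9.06% below the ctrl-Treg mean.

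Per length, the ring's genes were thus less evenly expressed in Sora-Treg cells. In ctrl-Treg cells the FPKM ran from 70.4 ± 1.18 (SD, n = 3) for Mcm6 through 64.4 ± 0.162 for Mcm3, 53.5 ± 0.386 for Mcm7, 46.8 ± 0.971 for Mcm5 and 43.8 ± 1.11 for Mcm4 to 42.9 ± 0.550 for Mcm2, the last 2 differing by less than the Mcm4 spread. Sora-Treg cells had Mcm6 at 59.1 ± 0.937, then Mcm3 at 36.0 ± 0.696 and Mcm7 at 35.2 ± 1.45, which did not differ beyond their spread, then Mcm4 at 32.5 ± 0.637, and last Mcm2 at 25.9 ± 0.778 and Mcm5 at 25.6 ± 0.276, again within their spread. The highest FPKM in the ring was 1.64 ± 0.047 times the lowest in ctrl-Treg libraries and 2.33 ± 0.049 times in Sora-Treg libraries. Within each library, which removes the scaling between libraries, the ratio of Mcm6 to Mcm3 was 1.09, 1.08 and 1.11 in ctrl-Treg and 1.65, 1.69 and 1.58 in Sora-Treg libraries. The ratio of Mcm6 to Mcm2 was 1.64, 1.60 and 1.69 against 2.38, 2.28 and 2.19. Both ratios were higher in every Sora-Treg library than in any ctrl-Treg library. The smallest p that an exact permutation test could give for such a ratio, with 3 libraries in each group, is 0.1, and since the ratios were chosen with these data known they are given as a description.

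**Figure D2:**
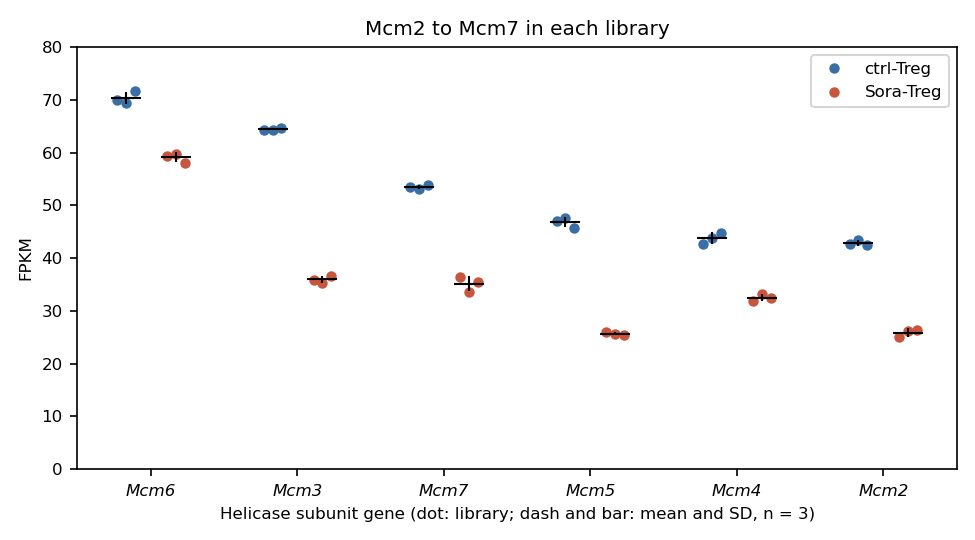
FPKM (y axis, from 0) of the 6 helicase ring genes (x axis), with a dot for each library (ctrl-Treg blue, Sora-Treg red) and a dash and bar for the mean and SD of 3 libraries. Mcm6 kept a Sora-Treg mean of 59.1 against 70.4 in ctrl-Treg, while Mcm3 and Mcm5 went from 64.4 to 36.0 and from 46.8 to 25.6. These values are without TMM adjustment.

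Genes whose products turn the loaded ring into a working helicase were lower in 8 of 8, with a median log2 fold change of -0.65, against -0.52 for the licensing genes, and a summed level 39.7% below the ctrl-Treg mean. Mcm10, which is needed to start unwinding at the origin and despite its name is no part of the ring, was at 43.2, 42.7 and 43.0 CPM in ctrl-Treg and 17.9, 20.0 and 21.1 CPM in Sora-Treg libraries. Its log2 fold change of -1.12 ± 0.06 (edgeR adjusted p = 3.89e-13) was the largest fall of the 48 genes. Cdc45, the CMG subunit that opens activation, was at 43.1, 43.7 and 44.2 CPM against 20.1, 22.0 and 21.5 CPM, a log2 fold change of -1.04 ± 0.06 (edgeR adjusted p = 2.79e-13). Both genes had Sora-Treg libraries at about the same distance under a ctrl-Treg group that barely varied. The ratio of Mcm10 to Mcm6 per length went from 0.154 ± 0.00251 in ctrl-Treg to 0.0777 ± 0.00725 in Sora-Treg libraries (SD, n = 3).

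The GINS subunit genes fell to differing degrees, at -0.68 ± 0.09 for Gins2, -0.51 ± 0.14 for Gins1, -0.50 ± 0.10 for Gins3 and -0.22 ± 0.06 for Gins4. Gins4, the smallest fall of the activation group, was at 29.2, 27.8 and 28.3 CPM in ctrl-Treg and 23.6, 24.3 and 25.5 CPM in Sora-Treg libraries (edgeR adjusted p = 0.00445). Its groups did not overlap. Ticrr (treslin), which recruits Cdc45 under control of the S-phase kinases, had a log2 fold change of -0.74 ± 0.08, and Wdhd1 (And-1), which ties polymerase alpha to the helicase, one of -0.63 ± 0.06.

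All 9 polymerase and primase genes were lower, with a median log2 fold change of -0.49 and a summed level of 525, 521 and 520 CPM in ctrl-Treg and 373, 369 and 376 CPM in Sora-Treg libraries. Pole, the catalytic subunit of the leading-strand polymerase epsilon, fell most, from 96.7, 98.7 and 93.0 CPM to 53.0, 55.6 and 55.4 CPM. Its log2 fold change was -0.82 ± 0.04 (edgeR adjusted p = 5.64e-14), and that of the second subunit gene Pole2 was -0.49 ± 0.09. The ratio of Pole to Pole2 per length was 2.10 ± 0.151 in ctrl-Treg and 1.69 ± 0.164 in Sora-Treg libraries.

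Polymerase alpha and primase lay down the primers that start each new strand. Here Pola1, the catalytic subunit gene, had a log2 fold change of -0.75 ± 0.06, Prim1, the catalytic primase subunit gene, -0.63 ± 0.05, Pola2 -0.44 ± 0.05 and Prim2 -0.26 ± 0.06. In each pair the gene of the catalytic subunit had the more negative estimate.

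Polymerase delta extends the lagging strand. Pold1, its catalytic subunit gene, fell by 0.49 ± 0.04 on the log2 scale, and Pold2 by 0.53 ± 0.06. Pold3, an accessory subunit gene, was at 92.3, 90.3 and 90.5 CPM in ctrl-Treg and 87.7, 81.5 and 84.2 CPM in Sora-Treg libraries. This was the smallest fall among the polymerase genes, -0.11 ± 0.04 (edgeR adjusted p = 0.0193), and it did not pass when ctrl-Treg replicate 1, Sora-Treg replicate 2 or Sora-Treg replicate 3 was left out (adjusted p = 0.0841, 0.0851 and 0.0571). The ratio of Pold3 to Pold1 per length was 0.970, 0.942 and 0.954 in ctrl-Treg and 1.28, 1.18 and 1.26 in Sora-Treg libraries, with no overlap.

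The clamp and its loaders held both the smallest change of the 48 genes, that of Rfc3, and one of the 3 largest, that of Dscc1. Of 7 genes 6 were lower, the median log2 fold change was -0.32, and the summed level was 19.6% below the ctrl-Treg mean, the least of the 8 role groups. Pcna, the sliding clamp that holds polymerases on DNA, was the most abundant of the 48 genes per length, at 254.6 ± 7.39 FPKM in ctrl-Treg and 191 ± 1.57 FPKM in Sora-Treg libraries. In CPM it was at 297, 312 and 316 against 252, 253 and 249. The Pcna groups were separate, with a log2 fold change of -0.30 ± 0.03 (edgeR adjusted p = 9.91e-09).

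Replication factor C, which opens the clamp and closes it around DNA, has 5 subunits, and their genes split widely. Rfc5 and Rfc4 had log2 fold changes of -0.83 ± 0.06 and -0.82 ± 0.07, and Rfc2 of -0.32 ± 0.04. Rfc1, which encodes the large subunit, was at -0.15 ± 0.04 (edgeR adjusted p = 0.00328). Rfc3 was at 24.6, 24.3 and 24.9 CPM in ctrl-Treg and 24.3, 23.4 and 24.0 CPM in Sora-Treg libraries, a log2 fold change of -0.04 ± 0.06 (edgeR adjusted p = 0.584). Its 3 Sora-Treg libraries lay just below the ctrl-Treg libraries, by less than the fit could separate. This call depended on scaling: with library size alone, which moves the median of all genes to -0.12, Rfc3 was at -0.16 (edgeR adjusted p = 0.0345).

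Dscc1, a subunit gene of the alternative loader that also takes part in sister chromatid cohesion, was at 5.94, 6.37 and 6.14 CPM in ctrl-Treg and 3.20, 2.70 and 3.26 CPM in Sora-Treg libraries. It had the lowest counts of the 48 genes in any library, 86, and the largest error, with a log2 fold change of -1.01 ± 0.15 (edgeR adjusted p = 2.90e-06). The groups lay well apart, but its place past the 2-fold limit was lost when ctrl-Treg replicate 2 or Sora-Treg replicate 2 was left out, and with limma on log2(FPKM + 1). Across the clamp group, the ratio of Pcna to Rfc4 per length was 10.2, 10.4 and 10.3 in ctrl-Treg and 13.5, 15.5 and 15.6 in Sora-Treg libraries.

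Replication protein A, the trimer that coats unwound single strands, was lower in all 3 of its genes, with a summed level 21.3% below the ctrl-Treg mean. Rpa2, the subunit gene with the largest fall, was at 49.3, 44.8 and 42.4 CPM in ctrl-Treg and 29.9, 30.0 and 30.3 CPM in Sora-Treg libraries, a log2 fold change of -0.60 ± 0.06 (edgeR adjusted p = 5.21e-09). Rpa3 was at 20.2, 17.1 and 19.1 CPM against 15.6, 16.1 and 14.7 CPM, a log2 fold change of -0.28 ± 0.08 (edgeR adjusted p = 0.00474). Rpa1, the large subunit gene, had a log2 fold change of -0.28 ± 0.03. The Sora-Treg libraries were the lower ones for all 3 genes, by a narrow gap for Rpa3.

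Among the 48, the genes for turning Okazaki fragments into a continuous strand were lower in 4 of 4. Their median log2 fold change was -0.69 and their summed level 35.5% below the ctrl-Treg mean. Fen1, the flap nuclease, fell from 54.8, 54.8 and 52.8 CPM to 32.1, 29.6 and 33.6 CPM, a log2 fold change of -0.77 ± 0.05 (edgeR adjusted p = 1.59e-11). Lig1, the ligase that seals the nicks, was at -0.63 ± 0.04, and Dna2, a nuclease and helicase for long flaps and the least abundant of the 48 genes per length at 2.37 ± 0.150 FPKM in ctrl-Treg cells, at -0.75 ± 0.11. Rnaseh2b, a subunit gene of the enzyme that removes ribonucleotides from DNA, was at 19.7, 20.9 and 22.0 CPM in ctrl-Treg and 19.8, 15.2 and 16.7 CPM in Sora-Treg libraries. Here Sora-Treg replicate 1 lay within the ctrl-Treg range, and the log2 fold change was -0.28 ± 0.09 (edgeR adjusted p = 0.00812). Without Sora-Treg replicate 2 the Rnaseh2b call was lost (edgeR adjusted p = 0.0533). The other subunit genes of this enzyme, Rnaseh2a and Rnaseh2c, are outside the 48. They were called higher, at 0.20 ± 0.05 and 0.18 ± 0.08, with limits given below.

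Fork protection genes were lower in 3 of 3, by 36.4% in summed level. Clspn, which encodes claspin, the mediator that passes the stalled-fork signal to Chek1, was at 49.3, 45.1 and 49.8 CPM in ctrl-Treg and 25.9, 26.2 and 27.0 CPM in Sora-Treg libraries, a log2 fold change of -0.87 ± 0.05 (edgeR adjusted p = 3.95e-12). Tipin, a partner of Timeless at the fork, was at 62.9, 62.5 and 63.4 CPM against 42.0, 45.5 and 45.0 CPM, a log2 fold change of -0.51 ± 0.05 (edgeR adjusted p = 1.34e-09). Timeless itself was at -0.65 ± 0.05. No library of one group reached the other for any of these genes.

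Both large subunit genes of chromatin assembly factor 1 (CAF-1), which places histones on new DNA, fell by nearly the same amount. Chaf1a was at 66.2, 71.3 and 72.2 CPM in ctrl-Treg and 39.9, 40.9 and 43.3 CPM in Sora-Treg libraries, a log2 fold change of -0.75 ± 0.05 (edgeR adjusted p = 4.61e-12). Chaf1b was at 19.9, 22.2 and 20.9 CPM against 12.5, 12.6 and 12.5 CPM, a log2 fold change of -0.74 ± 0.08 (edgeR adjusted p = 1.85e-08). Their ratio per length stayed within its spread, at 2.05 ± 0.0746 in ctrl-Treg and 2.03 ± 0.0921 in Sora-Treg libraries.

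**Figure D3:**
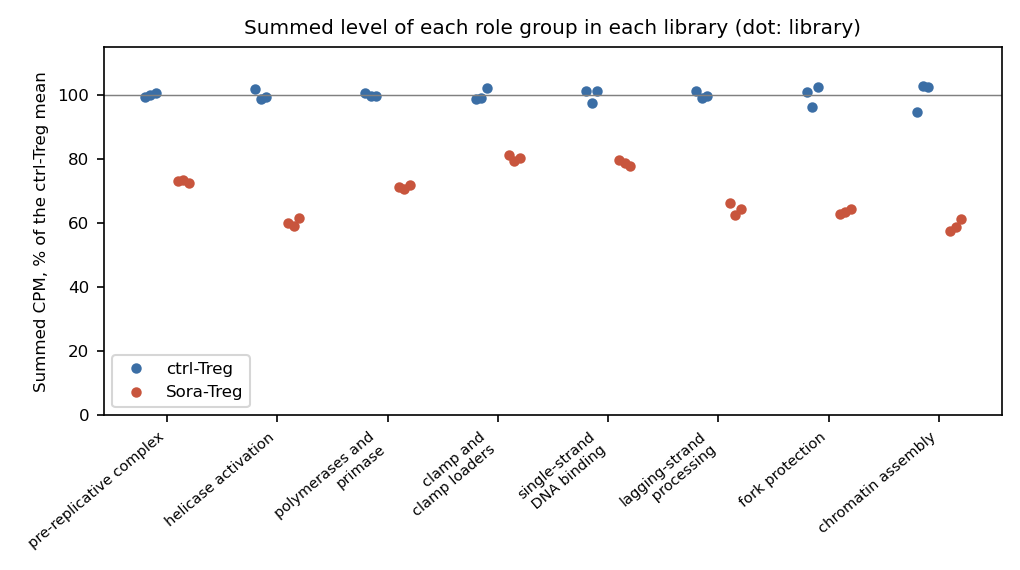
Summed CPM of each role group in each library (dots), as a percent of the ctrl-Treg mean of that group (y axis, from 0), for the 8 role groups (x axis). The Sora-Treg dots lie below the ctrl-Treg dots in all 8 groups, from 19.6% below the ctrl-Treg mean for the clamp and its loaders to 40.7% below for chromatin assembly.

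Complexes thus differed in whether their listed subunit genes fell together. The gaps below cover listed genes only and do not rank whole complexes. Outside the list, the log2 fold change was 0.45 for Pold4 (polymerase delta) and 0.20 for Orc3. It was -0.33 for Pole3 and -0.17 for Pole4 (polymerase epsilon), and -0.14 for Rbbp4, a further CAF-1 subunit gene. Each lay above the range of its complex's listed genes and would widen that gap. The gap between the largest and the smallest log2 fold change was 0.79 among the 5 replication factor C genes, 0.62 in the Mcm2 to Mcm7 ring, 0.49 in polymerase alpha with primase, 0.46 in GINS, 0.43 in polymerase delta, 0.33 in polymerase epsilon, 0.32 in replication protein A, 0.32 in the 3 ORC genes and 0.01 in CAF-1. The Sora-Treg and ctrl-Treg ratios of the highest to the lowest subunit per length were 2.34 ± 0.141 and 2.57 ± 0.120 for replication factor C, whose order of subunits changed, and 2.11 ± 0.0457 and 1.71 ± 0.179 for replication protein A.

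Genes that work beside the 48 were counted from lists of related functions. Of 36 other replication factors tested, 25 were lower, 5 higher and 6 not called, with a median log2 fold change of -0.31. Top2a, the topoisomerase that untangles daughter strands, had a log2 fold change of -0.65 ± 0.03 (edgeR adjusted p = 8.06e-16), Uhrf1, which reads hemimethylated DNA behind the fork, one of -0.76 ± 0.04, and Dnmt1, the maintenance DNA methyltransferase, one of -0.62 ± 0.03. The 5 that were higher are partners of the 48 genes: Pold4, the smallest polymerase delta subunit gene, at 0.45 ± 0.09, Orc3 at 0.20 ± 0.05, the RNase H2 subunit genes Rnaseh2a at 0.20 ± 0.05 and Rnaseh2c at 0.18 ± 0.08, and Donson, a helicase assembly factor gene, at 0.14 ± 0.06. All but Pold4 lost their call with library size scaling and with limma on FPKM, while keeping a positive estimate. Rnaseh2c and Donson lost it as well with upper quartile scaling, with the filter of 1 count in any library, with DESeq2, and without ctrl-Treg replicate 1 or Sora-Treg replicate 2, Rnaseh2c also without ctrl-Treg replicate 3 or Sora-Treg replicate 1, and Donson also without ctrl-Treg replicate 2 or Sora-Treg replicate 3. Pold4 was at 12.4, 15.2 and 16.3 CPM in ctrl-Treg and 20.0, 20.0 and 20.1 CPM in Sora-Treg libraries, opposite in direction to Pold1, Pold2 and Pold3.

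Deoxynucleotide supply, which feeds the polymerases, was lower in 11 of 14 genes, with a median of -0.57. Tyms, thymidylate synthase, fell by 1.16 ± 0.06 on the log2 scale (edgeR adjusted p = 3.03e-13), and Rrm2, the S-phase subunit of ribonucleotide reductase, by 0.77 ± 0.04. Samhd1, which degrades deoxynucleotides, moved the other way, from 359, 359 and 377 CPM in ctrl-Treg to 646, 647 and 656 CPM in Sora-Treg libraries, a log2 fold change of 0.83 ± 0.03 (edgeR adjusted p = 1.77e-17). Cmpk1, a nucleoside monophosphate kinase gene, was higher by 0.32 ± 0.07, and the remaining gene was not called.

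Of 29 genes of G1 to S control, 16 were lower, 7 higher and 6 not called, with a median of -0.16. Tfdp1, the dimer partner of E2F proteins, had a log2 fold change of -0.65 ± 0.03 (edgeR adjusted p = 1.68e-14). Those that rose included the cyclin gene Ccnd3 at 0.63 ± 0.03, the Cdk inhibitor genes Cdkn2d at 0.76 ± 0.04 and Cdkn1b (p27) at 0.57 ± 0.05, Myc at 0.36 ± 0.03 and Cdk6 at 0.18 ± 0.03. The Cdk inhibitor genes were split, since Cdkn1a and Cdkn2c were called lower, at -0.29 ± 0.03 and -0.24 ± 0.09. Ccnd3 was at 324, 326 and 331 CPM in ctrl-Treg and 517, 494 and 510 CPM in Sora-Treg libraries. Mycn rose by 2.71 ± 0.46 on the log2 scale from low levels, with 5 counts in each ctrl-Treg library and 24, 39 and 28 counts in the Sora-Treg libraries. Ccnd2 was higher by 0.08 ± 0.03, an estimate that turned negative with library size scaling and on FPKM. The G1 to S list moved in both directions, as did the other replication factors, while the 48 genes did not. All lists were chosen with earlier results known, so this contrast depends on which genes each list holds.

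Mitosis genes were lower in 29 of 30, with none higher (by edgeR, DESeq2 or limma on log2(FPKM + 1), nor at an unadjusted p under 0.05 in edgeR) and a median of -0.69, more negative than the median of the replication genes. Kif11, the kinesin that builds the bipolar spindle, had a log2 fold change of -0.94 ± 0.04 (edgeR adjusted p = 1.24e-15), Mki67, the proliferation marker Ki-67, -0.68 ± 0.03 and Foxm1, a transcription factor gene of the G2 and M phases, -0.85 ± 0.05. The mitosis genes moved with the replication genes, and the part of a different share of cycling cells in either result was not tested here. By flow cytometry of Treg cultures from mice without the reporter, the paper reports slightly less proliferation and more apoptosis with Sora.

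Among 19 replication checkpoint and repair genes, 14 were lower, 1 higher and 4 not called, with a median of -0.56. Exo1, a nuclease of mismatch repair and end resection, was at -1.35 ± 0.09 (edgeR adjusted p = 2.26e-11), and Brca1, which acts in homologous recombination, at -0.93 ± 0.05 (edgeR adjusted p = 2.23e-13). Atr, the kinase gene at the top of the stalled-fork response, was the gene that rose, by 0.31 ± 0.05.

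Among other DNA polymerases 4 of 11 were lower, near the 29.9% of all tested genes, with none higher by edgeR (1 at an unadjusted p under 0.05), DESeq2 or limma on log2(FPKM + 1) and a median of -0.12. Polq, the polymerase of microhomology end joining, fell by 1.12 ± 0.08 on the log2 scale, while the translesion genes Rev1 and Polk were at -0.34 ± 0.05 and -0.31 ± 0.04. Of 11 genes for replication of mitochondrial DNA, 4 were lower and 2 higher, against 29.9% and 29.7% of all tested genes, with a median of -0.11. Lig3 and Top1mt were lower, at -0.40 ± 0.05 and -0.68 ± 0.09, and Polg, the mitochondrial polymerase, and Tfb2m were higher, at 0.31 ± 0.03 and 0.35 ± 0.09. These differences between lists are given as counts and medians and were not tested.

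**Figure D4:**
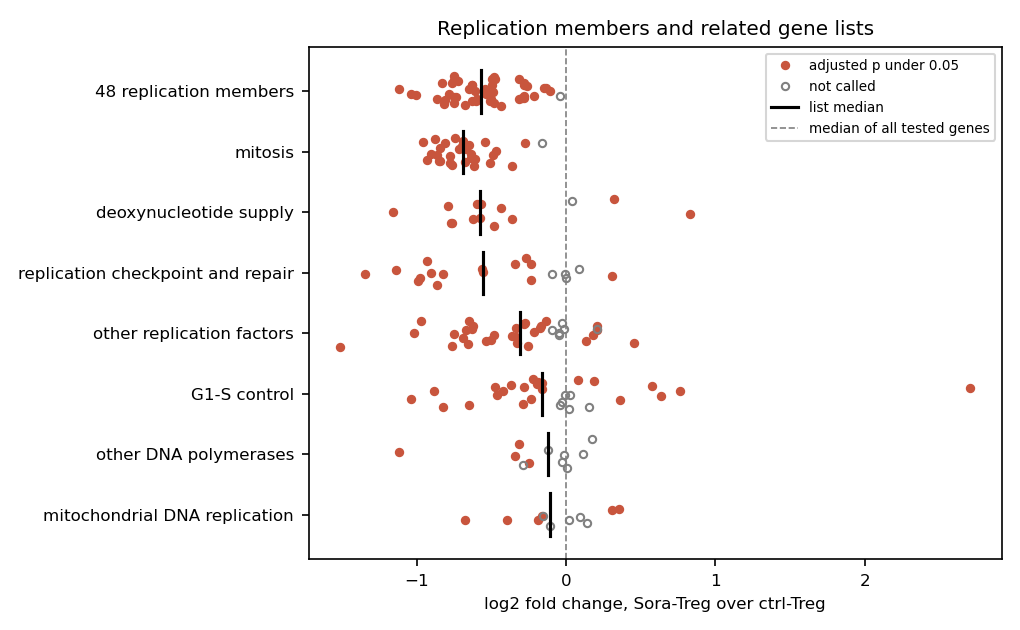
Log2 fold change of Sora-Treg over ctrl-Treg (x axis) of the 48 replication genes and of 7 lists of related genes (rows), a point for each gene, filled where the edgeR adjusted p was under 0.05, with a bar at the list median and a dashed line at the median of all tested genes. The replication genes and the mitosis genes, with medians of -0.57 and -0.69, lie wholly left of 0, while G1 to S control (median -0.16) and mitochondrial DNA replication (median -0.11) lie on both sides.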

How the data were processed

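The authors deposited raw read counts and FPKM values per gene symbol for 6 libraries. Each deposited FPKM value was the count over the library total and a gene length that was the same in all libraries (within 1.64e-06, relative, over 22939 genes), so FPKM served for levels between genes and as an alternative, not as a separate measurement. The study's methods name Bowtie2, GRCm38 and an expectation-maximization step, whereas the submitters' processing notes list fastp, HISAT2, HTSeq, R 3.2.0, DESeq2 and GRCm39. Which of these made the tables, the annotation release and the use of strand are not given in the sources used here. Overlapping, antisense and pseudogene copies can therefore share reads with a gene. No coordinate came from the tables; coordinates and promoters are from RefSeq on GRCm38.p6, by symbol.

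Counts were analysed with the edgeR 4.0.16 quasi-likelihood test in R 4.3.3, with TMM scaling (factors 0.96 for Sora-Treg, 1.04 for ctrl-Treg), filterByExpr, no covariate, two-sided p and Benjamini-Hochberg adjustment over 13463 genes. A gene was called at an adjusted p under 0.05. SE is the one the F statistic implies, and SD is over 3 libraries. Depth sets a floor of 3 counts at 0.0795 to 0.0976 CPM, which covers counting error only, and the 48 genes had 86 to 11702 counts per library. Replicate pairs differed by more than sampling noise (chi-square per degree of freedom 3.45 to 6.17). The steps were tested on simulated counts.

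The 48 genes and all lists were chosen with earlier results of these data known. Values in every library are given for Mcm2 to Mcm7, Cdt1, Gmnn, Pcna, the largest and smallest change of each role group and members whose call differed from their group. Related lists name the first 3 genes by adjusted p and all called against the list's median, except that a few genes are not reported here. Other genes given in every library (Cdc45, Lyz2, Pold4, Samhd1, Ccnd3, Mycn) were chosen after their values were seen. Promoters were matched for 37 of the 48 genes. Protein sequences were not analysed here. Of the related lists, Chtf8 and Atrip were not analysed here. As alternatives, libraries were scaled by RLE, by upper quartile or by size alone, and the fit was run with 2 other filters, DESeq2 1.42.0, robust fitting, a replicate block, limma 3.58.1 on log2(FPKM + 1) or log2(FPKM + 0.1), and left-out libraries.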

Additional observations from a re-analysis of the deposited data

How the results depend on the processing

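Of 864 values of the 48 genes under 18 alternatives, 852 kept direction and side of the threshold, and 42 of the genes kept both under all of them. The number of genes called lower was 47 under the other scalings, filters and count tests, 48 with library size scaling and with limma on FPKM, 45 to 47 with single libraries left out, and 43 with ctrl-Treg replicates 1 and 2 both left out, a fit with 1 ctrl-Treg library whose spread is that of the Sora-Treg group. No gene was called higher under any of them. The number at least 2-fold lower was 2 or 3. The median log2 fold change of the 48 genes, -0.57, was -0.61 with upper quartile scaling, -0.69 with library size scaling, -0.61 with limma on log2(FPKM + 1), filtered or not, and -0.68 with log2(FPKM + 0.1), and from -0.60 to -0.53 with single libraries left out, the value nearest 0 being that without ctrl-Treg replicate 1. Library size scaling, which leaves out the TMM factors, moved the median of all genes to -0.12 and the calls to 5614 lower and 2862 higher, against 4028 and 3994. Ccnd2 turned negative, at -0.0364 with library size scaling, -0.0369 with limma on log2(FPKM + 1), filtered or not, and -0.0371 with log2(FPKM + 0.1). Same-numbered replicates did not deviate together (correlations -0.0438, 0.0591 and 0.0299), and the replicate block, which gave 47 genes lower, 0 higher, 3 at least 2-fold lower and a median of -0.57, changed no call among the 48. Precision is limited by 3 libraries a group, and for Dscc1 and Gins1 also by low counts.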
